A study of Mus musculus with 8 samples.

Results

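The 9 genes described here are established targets or feedback regulators of bone morphogenetic protein (BMP) signalling: the helix-loop-helix genes Id1, Id2, Id3 and Id4, the homeobox genes Msx1 and Msx2, and the pathway regulators Bambi, Smad6 and Smad9. They were chosen by symbol, as the probe sets annotated to exactly 1 of these names, and all 9 were found among 18194 genes measured. Together they have 15 probe sets, and the brightest of each gene stands for it. The arrays hold RNA from mandibular arches, the embryonic tissue of the lower jaw, of C57BL/6J embryos at day 11.5, with sex not determined. There were 4 arches of genotype Alk5 fl/fl (controls) and 4 of genotype Wnt1-Cre;Alk5 fl/fl (mutants), so the floxed Alk5 allele is common to both groups and Cre is named for the mutants alone. Alk5 is the TGF-beta type I receptor Tgfbr1, and the Wnt1-Cre driver acts in the neural crest lineage, which forms most of the arch mesenchyme but not its epithelium, blood vessels or muscle precursors. A difference thus cannot be told apart from an effect of the driver. Nothing in the labels says that the arches of a group came from different litters, so the p-values measure the spread between these arrays, part of which may be technical.

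BMP ligands signal through type I and type II receptors that phosphorylate Smad1, Smad5 and Smad9 (also called Smad8), which enter the nucleus with Smad4 and switch on Id genes and, in many tissues, Msx genes. Id proteins lack a DNA-binding region and hold basic helix-loop-helix factors in inactive pairs. Msx1 and Msx2 are homeodomain repressors of the outgrowing arch mesenchyme and tooth-forming regions. Smad6 and the pseudoreceptor Bambi are induced by the pathway and dampen it.

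Upstream sequences are shown for Id4, Msx1 and Smad6, the genes whose control and mutant values did not overlap, with a relative of the same family beside the first 2 (Id2 and Msx2). They are RefSeq sequence (GRCm38.p6), outside the annotated transcripts, 5′ to 3′ on the strand of the gene. Capitals mark matches on either strand to GGCGCC, the core of a BMP response element known from Id1, or to TAATTA, a homeodomain core.
Id4 (chr13:48260911-48261030, plus strand): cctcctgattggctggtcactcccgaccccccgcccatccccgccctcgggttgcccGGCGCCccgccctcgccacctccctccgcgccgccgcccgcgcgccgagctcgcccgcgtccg
Id2 (chr12:25096223-25096342, minus strand): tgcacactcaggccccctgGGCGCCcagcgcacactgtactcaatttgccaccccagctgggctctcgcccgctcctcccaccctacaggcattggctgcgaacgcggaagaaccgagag
Msx1 (chr5:37824586-37824705, minus strand): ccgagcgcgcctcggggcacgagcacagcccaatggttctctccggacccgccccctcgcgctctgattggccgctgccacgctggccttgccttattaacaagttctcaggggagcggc
Msx2 (chr13:53472905-53473024, minus strand): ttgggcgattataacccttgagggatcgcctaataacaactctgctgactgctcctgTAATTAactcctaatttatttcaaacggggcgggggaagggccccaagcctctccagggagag
Smad6 (chr9:64022086-64022205, minus strand): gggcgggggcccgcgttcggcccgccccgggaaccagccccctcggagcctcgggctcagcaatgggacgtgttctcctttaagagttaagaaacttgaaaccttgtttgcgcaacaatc

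The sequence table held 7 of the 9 genes, all but Id1 and Bambi. In the 250 bases before the start, GGCGCC occurred in 3 of the 7 (Id2, Id4 and Smad9), against 9.59% of 32851 promoter windows. The Smad9 match, unlike those of Id2 and Id4, did not lie outside the annotated transcripts of its gene. TAATTA occurred in 1 of the 7 (Msx2), against 4.84% of windows. Neither TAATTG, a Msx-type homeodomain core (7.17% of windows), nor GTCTAGAC, a palindromic Smad box (0.167%), occurred in any of the 7. These matches of letters are descriptions and not binding sites.

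None of the 9 genes passed the test of mutants against controls (limma, adjusted p under 0.05 over all 18194 genes), where 2.14% of all genes did. The smallest adjusted p was 0.0675, for Msx1. At an unadjusted p under 0.05 there were 3 of 9 (Id4, Msx1 and Smad6), against 13.5% of all genes. These were the same 3 whose groups did not overlap, against 10.3%. In the direction of the 3, with lower mutant values, the shares of all genes were 8.95% and 7.02%. The log2 fold change was below 0 for 7 of the 9, against 9455 of all 18194 genes. The median of the 9 was -0.08, where that of all genes was -0.01. Of the 9, 8 were brighter than the median gene, and the genes brighter than it had a median of -0.05. The 9 genes spread into a set of closely similar values in controls and mutants (Id1, Id2, Id3, Bambi and Smad9), a set with lower mutant values (Id4, Msx1 and Smad6), and Msx2, whose mean was higher in mutants.

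**Figure D1:**
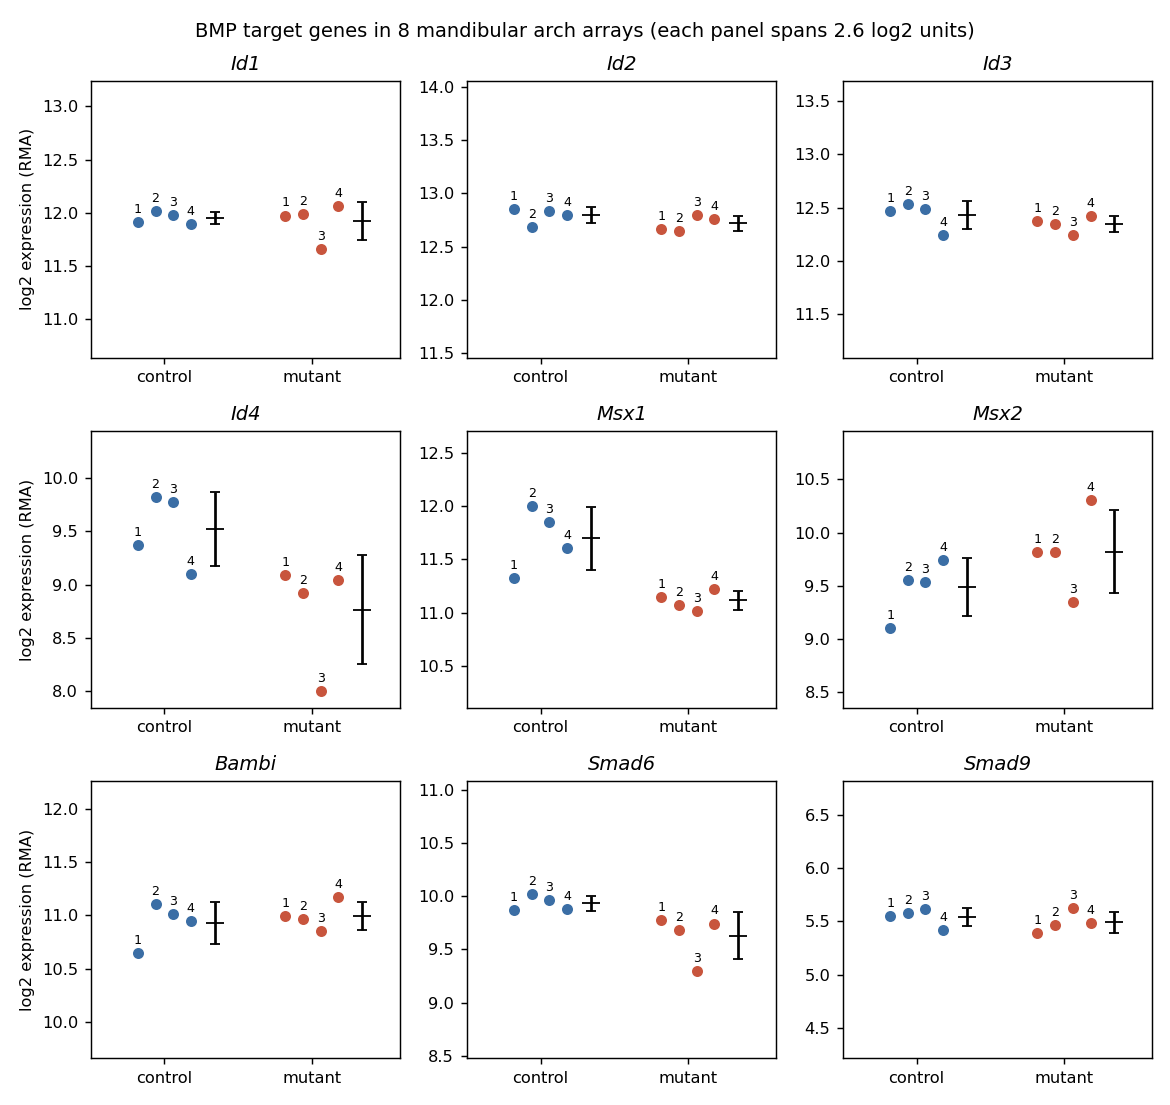
Log2 expression (RMA, vertical axis) of the 9 genes in each of 4 control and 4 mutant arrays; numbers are replicate numbers, and the bar beside each group is its mean ± SD. All panels span the same number of log2 units, so the tight values of Id1, Id2, Id3 and Smad9 can be set against the wide ones of Id4, Msx1 and Msx2, and mutant replicate 3 is the lowest mutant in 7 of the 9 panels.

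Mutant replicate 3 stood apart from the other arrays. Its values over all 45101 probe sets had an SD of 2.42, against 2.52 to 2.56 on the other 7 arrays, and its correlations with other arrays ran from 0.986 to 0.991, where pairs without it gave 0.993 to 0.997. It was the lowest mutant array in 7 of the 9 genes, all but Id2 and Smad9. Values without it are therefore given below with Id1, Id4, Msx1, Msx2 and Smad6. For the other genes the log2 fold change without it was -0.10 (Id2), -0.05 (Id3), 0.11 (Bambi) and -0.10 (Smad9). Tgfbr1 itself, the targeted gene, had a mean of 12.79 (SD 0.0844) over the 4 controls and 12.98 (SD 0.0115) over the 4 mutants (limma adjusted p = 0.232). All 4 mutants were above all 4 controls, as in 595 of all 18194 genes. The place of its probe set relative to the deleted part is not known here.

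Id1, Id2 and Id3, the Id genes most often used as a readout of BMP Smad activity, had near-equal log2 values in controls and mutants. Id1 read 11.92, 12.02, 11.98 and 11.90 in control replicates 1 to 4 and 11.98, 11.99, 11.66 and 12.07 in mutant replicates 1 to 4. The mutant values lay on both sides of the controls, and mutant replicate 3 was the one low array. The log2 fold change of Id1 was -0.03 ± 0.0942 (SE, limma adjusted p = 0.923), with a 95% interval of -0.24 to 0.18, and it was 0.06 without mutant replicate 3.

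Id2 read 12.85, 12.69, 12.84 and 12.80 in controls and 12.67, 12.64, 12.80 and 12.76 in mutants. The groups overlapped, and its log2 fold change was -0.08 ± 0.0713 (SE, adjusted p = 0.712; 95% interval -0.24 to 0.08). Its other bright probe set (1422537_a_at) went from 12.33 ± 0.0465 to 12.13 ± 0.12 (SD, n = 4 each) with no overlap, a change of -0.20 (adjusted p = 0.439 over 45101 probe sets, of which 0.845% passed and 4.54% had mutants below all controls). The third, 1453596_at, was dim, with a mean of 5.36, and its groups overlapped. Id2 is thus measured by a pair of bright probe sets that separate the groups differently, by at most 0.20 on the log2 scale.

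Id3 read 12.47, 12.53, 12.49 and 12.24 in controls and 12.37, 12.35, 12.25 and 12.43 in mutants. Control replicate 4 was the lowest of all 8 arrays here, and the other 3 controls were above all 4 mutants. Its log2 fold change was -0.09 ± 0.0831 (SE, adjusted p = 0.723; 95% interval -0.27 to 0.10). At the brightest probe sets of Id1, Id2 and Id3, the 95% interval excluded a fold change larger than 1.21 in either direction (the bounds were 1.18 for Id1, 1.18 for Id2 and 1.21 for Id3). The other bright Id2 probe set, 1422537_a_at, had an interval of -0.38 to -0.02 on the log2 scale, so there mutant levels down to 0.77 of control were not excluded.

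Id4, known from neural precursors and osteoblasts, was the Id gene with lower values in the mutants. It read 9.38, 9.83, 9.78 and 9.10 in controls and 9.09, 8.92, 8.001 and 9.04 in mutants. All 4 mutants were below all 4 controls, but control replicate 4 and mutant replicate 1 nearly touched (9.096 and 9.094), and mutant replicate 3 lay far below the rest. The log2 fold change was -0.75 ± 0.252 (SE, adjusted p = 0.207), a mean 1.69-fold lower in mutants with a 95% interval of -1.32 to -0.19 on the log2 scale. Without mutant replicate 3 it was -0.50 (adjusted p = 0.174), over 1.5 times smaller. Without both that array and control replicate 4 it was -0.64 and passed (adjusted p = 0.0288), the single one of 17 alternative settings in which Id4 did so.

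The other probe sets of Id4 went the same way and were dimmer. Probe set 1450928_at had a log2 fold change of -0.66 ± 0.19 (SE, adjusted p = 0.201 over 45101 probe sets), and 1423260_at one of -0.39 ± 0.128 (adjusted p = 0.305). In both, control replicate 4 lay within the range of the mutants. The 3 probe sets read the same 8 RNA samples and are not independent of each other.

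**Figure D2:**
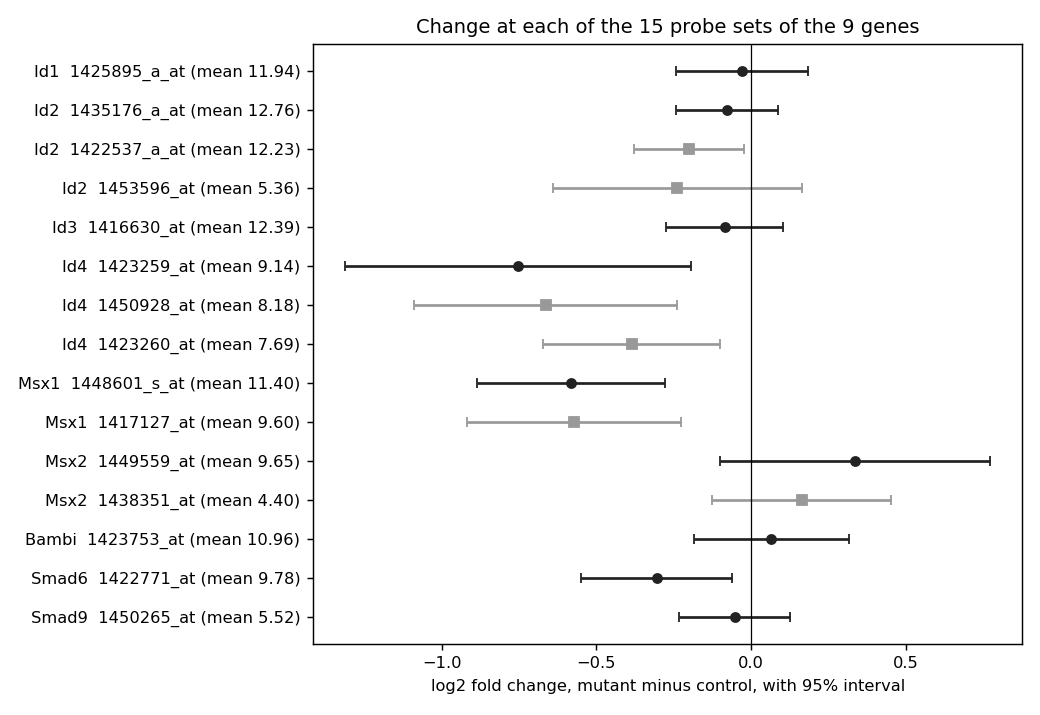
Log2 fold change (mutant minus control, horizontal axis) with its 95% interval at each of the 15 probe sets, with the mean log2 value over 8 arrays in parentheses; black circles are the probe sets that stand for a gene and grey squares the others. The 3 Id4 and 2 Msx1 probe sets lie below 0 with intervals that do not reach it, and both Msx2 probe sets lie above 0 with intervals that cross it.

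Msx1, which tooth and palate development require, came closest to the threshold. Its values were 11.33, 12.01, 11.85 and 11.60 in controls and 11.15, 11.07, 11.02 and 11.22 in mutants. The 4 mutants were tightly grouped below the 4 controls, which were spread over a wider range with control replicate 1 nearest to the mutants. The mean went from 11.70 ± 0.297 to 11.11 ± 0.0883 (SD, n = 4 each). The fitted log2 fold change was -0.58 ± 0.136 (SE, adjusted p = 0.0675; 95% interval -0.89 to -0.28), or 1.498-fold lower in mutants. Msx1 was the 1 gene of 9 with an adjusted p under 0.10, where 3.65% of all genes were.

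The other Msx1 probe set, 1417127_at, gave nearly the same size, -0.57 ± 0.155 (SE, adjusted p = 0.172 over 45101 probe sets), again with no overlap. Its lowest control read 9.49265 and its highest mutant 9.49234, so that gap was very small. The brightest Msx1 probe set carries the suffix _s_at, by which the maker marks sets that can match more than 1 transcript family, while 1417127_at does not. Msx1 passed the threshold in 3 of 17 alternative settings: under a variance model with a trend and robust fitting (adjusted p = 0.0185), with array weights (0.0232), and without control replicate 1 (log2 fold change -0.71, adjusted p = 0.0296). Over all 17 its adjusted p ran from 0.0185 to 0.222 and its log2 fold change from -0.71 to -0.48. Unlike Id4, it moved little without mutant replicate 3 (-0.55).

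Msx2, the relative of Msx1 with a nearly identical homeodomain, went the other way on average without passing. It read 9.10, 9.55, 9.54 and 9.75 in controls and 9.82, 9.82, 9.35 and 10.30 in mutants. Mutant replicates 1, 2 and 4 were above all controls, whereas mutant replicate 3 was below 3 of them. On the log2 scale the fold change was 0.34 ± 0.197 (SE, adjusted p = 0.522), with a 95% interval of -0.10 to 0.78. Without mutant replicate 3 it was 0.49 (adjusted p = 0.178), whereas it was 0.18 without mutant replicate 4 (adjusted p = 0.76) and 0.21 without control replicate 1. The other Msx2 probe set was dim, with a mean of 4.40, and had a log2 fold change of 0.16.

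Genes of a family were also compared within each array, as the log2 value of one gene minus that of the other, a quantity that a shift of the whole array cannot alter. There were 7 such pairs, 6 among the Id genes and Msx2 minus Msx1, and they were chosen after the values had been seen. Each was tested by a two-sided exact permutation of the group labels over arrays, which can give no p below 0.0286. Pairs that share a gene are not independent of each other.

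Msx2 minus Msx1 was -2.22, -2.45, -2.31 and -1.86 in controls and -1.32, -1.26, -1.66 and -0.92 in mutants. The 4 mutants were all above the 4 controls, mutant replicate 3 included, although that array was low in each gene singly. The mean difference was higher in mutants by 0.92 on the log2 scale, a 1.89-fold shift of the ratio (95% interval 0.43 to 1.41; exact permutation p = 0.0286, adjusted over the 7 pairs 0.0667). The shift lay between 0.80 and 1.16 in the 11 alternative settings run for it. The groups did not overlap over the mean of all probe sets or with quantile normalization. The other settings only left arrays out, which cannot make groups overlap that do not overlap with all arrays. The groups thus separated in this ratio at the smallest p that the exact permutation allows, and the adjusted value stayed above 0.05.

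Among the Id genes, Id4 minus Id1 differed between the groups by -0.72 and Id4 minus Id3 by -0.67, without overlap (exact permutation p = 0.0286 each, adjusted 0.0667 each). Id4 minus Id2 differed by -0.68, where control replicate 4 reached into the mutants (exact permutation p = 0.0571, adjusted 0.1). Without mutant replicate 3 these shifts were smaller: -0.56 for Id4 minus Id1, -0.45 for Id4 minus Id3 and -0.40 for Id4 minus Id2. The pairs among Id1, Id2 and Id3 differed between the groups by at most 0.06 in size, with intervals of -0.36 to 0.27 for Id2 minus Id1, -0.23 to 0.12 for Id3 minus Id1 and -0.26 to 0.24 for Id3 minus Id2. Their exact permutation p-values were 0.486 or higher.

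**Figure D3:**
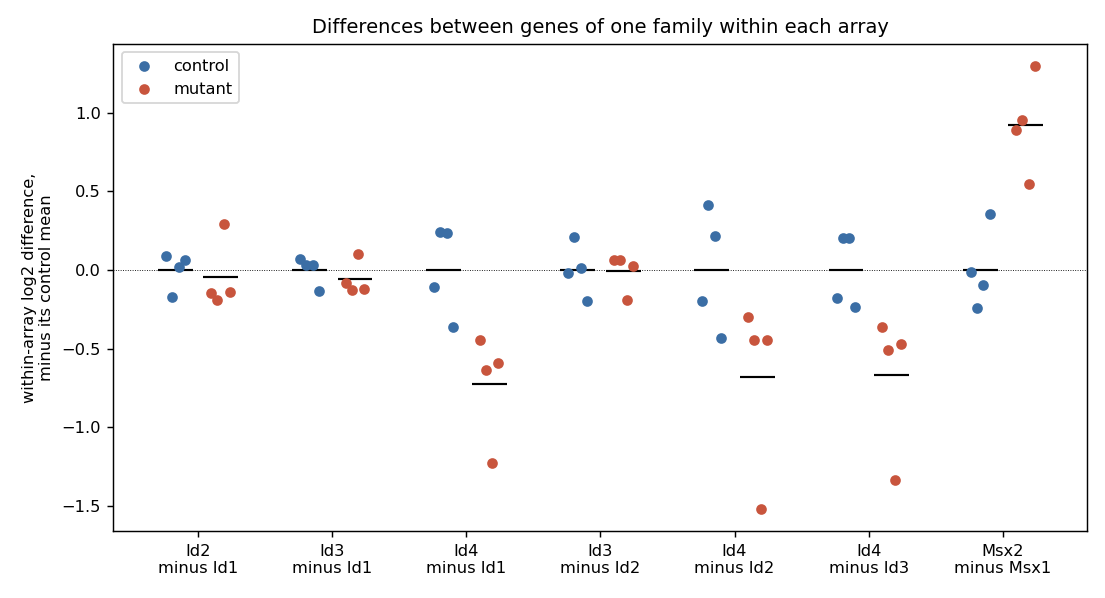
Within-array log2 difference between 2 genes of a family, less its mean in controls (vertical axis), for 7 pairs; points are arrays (4 control in blue, 4 mutant in red) and bars are group means. The mutant points of Msx2 minus Msx1 lie above all control points, and those of Id4 minus Id1 and Id4 minus Id3 below all control points. In Id4 minus Id2 control replicate 4 reaches into the mutants, and the pairs among Id1, Id2 and Id3 mix.

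Of the feedback regulators, Smad6, an inhibitory Smad that blocks BMP receptor signalling, had lower mutant values. It read 9.87, 10.02, 9.96 and 9.88 in controls and 9.78, 9.69, 9.30 and 9.74 in mutants. The controls were tight (SD 0.07), and all mutants were below them, mutant replicate 3 by the most. Smad6 had a log2 fold change of -0.31 ± 0.109 (SE, adjusted p = 0.242; 95% interval -0.55 to -0.06), and -0.20 (adjusted p = 0.119) without mutant replicate 3, over 1.5 times smaller. In none of 17 alternative settings did Smad6 pass, with adjusted p-values from 0.0635 to 0.523.

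Bambi, a receptor-like protein without a kinase domain that dampens the pathway, did not separate the groups. It read 10.64, 11.10, 11.01 and 10.95 in controls and 10.99, 10.96, 10.85 and 11.17 in mutants. Control replicate 1 was the lowest of the 8 arrays, and the remaining values interleaved. Its log2 fold change was 0.07 ± 0.111 (SE, adjusted p = 0.843; 95% interval -0.18 to 0.32), and it was -0.03 without control replicate 1.

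Smad9, a receptor-activated Smad of the BMP branch whose transcript the pathway can induce, was dim. Its values ran from 5.42 to 5.62 in controls and from 5.39 to 5.62 in mutants, below the median gene (7.63), and the groups overlapped. The log2 fold change was -0.05 ± 0.0779 (SE, adjusted p = 0.816). At such a level RMA compresses differences, so a change of Smad9 could be read as smaller than it was.

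**Figure D4:**
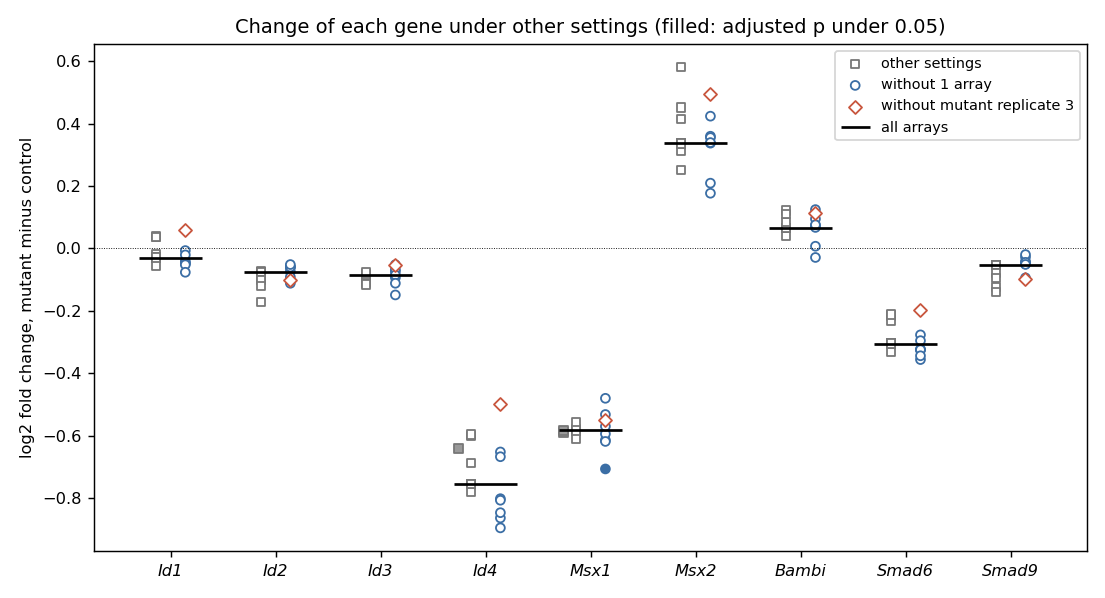
Log2 fold change (mutant minus control, vertical axis) of each gene with all arrays (black line), under 8 or 9 other settings (grey squares), and without 1 array at a time (blue circles, with mutant replicate 3 left out as a red diamond); filled symbols have an adjusted p under 0.05. Id4, Msx1, Msx2 and Smad6 keep their direction throughout, Id1 and Bambi cross 0, and the filled symbols belong to Msx1 (3) and Id4 (1).

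The genes upstream of these targets were taken from lists of the pathway. Of 38 measured BMP ligands, receptors, intracellular components and antagonists, 4 fell, 2 rose and 32 missed the threshold (adjusted p under 0.05), where 1.31% of all genes fell and 0.835% rose. Their median log2 fold change was -0.16, and 26 of 38 were below 0, against 9455 of all 18194 genes. Of 7 ligand genes, 1 fell: Bmp4, a ligand of the distal arch known to induce Msx1 there, read 11.29, 11.67, 11.53 and 11.10 in controls and 10.42, 10.56, 9.82 and 10.16 in mutants. All mutants were below all controls, with a log2 fold change of -1.16 ± 0.174 (SE, adjusted p = 0.0128). Bmp2 had a log2 fold change of -1.15 ± 0.257 (adjusted p = 0.0549), and Bmp7 one of -0.35 (adjusted p = 0.0988). The Bmp4 call was lost without control replicate 2 or 3 or mutant replicate 4 (adjusted p up to 0.0566). Bmp4 thus passed, at 2.23-fold lower, while the brightest probe sets of Id1, Id2 and Id3 each had a mutant mean within 1.06-fold of the control mean. The other bright Id2 probe set, 1422537_a_at, was 1.15-fold lower in mutants, and the mean of all Id2 probe sets had a log2 fold change of -0.17.

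Of 11 receptor and co-receptor genes, 2 rose. The type I receptor gene Bmpr1b rose by 1.34 ± 0.213 and the activin and BMP type II receptor gene Acvr2b by 0.52 ± 0.107 (log2 fold change ± SE, adjusted p = 0.0157 and 0.0412). The main BMP type I receptor genes Bmpr1a and Acvr1 had log2 fold changes of -0.12 (adjusted p = 0.582) and -0.40 (adjusted p = 0.0887). Acvr2b lost its call in 9 of 17 alternative settings and Bmpr1b in 2, without control replicate 3 or mutant replicate 4. Over the mean of its probe sets Bmpr1b rose by 0.84. The settings that cost Acvr2b its call included leaving out control replicate 1, 2 or 3 or mutant replicate 1, 2 or 4 (adjusted p up to 0.155), testing all probe sets and median centring.

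None of 8 intracellular components passed (limma, adjusted p under 0.05). At an unadjusted p under 0.05, 3 of the 8 did, against 13.5% of all genes. The smallest adjusted p belonged to the inhibitory Smad gene Smad7 (-0.39 ± 0.0905, adjusted p = 0.0688), which shares its inhibitory role with Smad6 and like it was lower in all 4 mutants than in any control. Smurf2, a ubiquitin ligase that acts on Smads and receptors, was next (-0.27, adjusted p = 0.299). Of 12 secreted antagonists, 3 fell: follistatin (Fst), Sostdc1, an antagonist of BMP and WNT in tooth-forming epithelium, and Nbl1, a DAN-family antagonist. Fst changed by -1.65 ± 0.261, Sostdc1 by -0.71 ± 0.139 and Nbl1 by -0.55 ± 0.105 (log2 ± SE; adjusted p = 0.0157, 0.0349 and 0.0321). The calls were lost without control replicate 1, 2 or 3 for Fst, and without control replicate 1, 2 or 3 or mutant replicate 4 for Sostdc1 and Nbl1 (Nbl1 also without mutant replicate 1). Sostdc1 also lost its call with all probe sets tested, and Sostdc1, Nbl1 and Acvr2b with the replicate number as a block. Noggin (Nog) was dim, with a log2 fold change of -0.09.

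**Figure D5:**
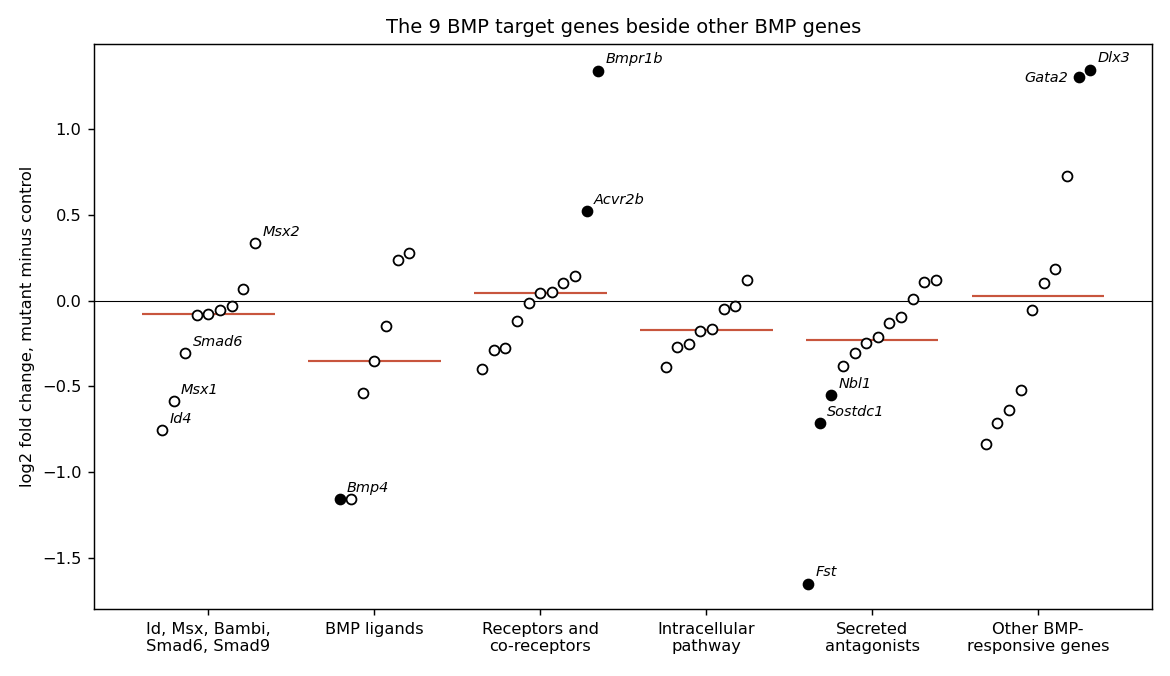
Log2 fold change (mutant minus control, vertical axis) of the 9 genes and of 5 lists of other BMP genes; each circle is a gene, filled where the adjusted p is under 0.05, and red bars are list medians. The 9 genes hold no filled circle, while Bmp4, Fst, Sostdc1 and Nbl1 fell and Bmpr1b, Acvr2b, Gata2 and Dlx3 rose.

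Other genes known to respond to BMP were no more uniform in direction than the 9. Of 10 measured, 2 rose, none fell and the other 8 missed the threshold; the median was 0.03, and 5 of 10 were below 0. At an unadjusted p under 0.05 there were 8 of 10, against 3 of the 9 and 13.5% of all genes. Gata2, a GATA factor that BMP induces in ventral and distal tissue, rose by 1.31 ± 0.109 and Dlx3, a homeobox gene of the distal arch, by 1.35 ± 0.177 (log2 ± SE; adjusted p = 0.00101 and 0.0066), and both passed in all 17 alternative settings. Of the genes that missed the threshold, the osteoblast factor gene Sp7 had a log2 fold change of -0.52 (adjusted p = 0.0559), Tbx3 one of -0.83 (0.0688), Tbx2 one of -0.64 (0.0913) and the Notch and BMP target Hey1 one of -0.71 (0.114). Gata3 had one of 0.73 (adjusted p = 0.0786). The values of this list thus lay on both sides of 0, as did those of Msx1 and Msx2. Over the mean of its probe sets Dlx3 rose by 0.88.

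The basic helix-loop-helix factors that Id proteins can hold back, with their E protein partners, did not pass in any of 14 cases (limma, adjusted p under 0.05). Of the 14, 3 had an unadjusted p under 0.05, against 13.5% of all genes. The smallest p-values were those of Hand2 (-0.27 ± 0.0938, adjusted p = 0.219), a regulator of the distal arch, and of the E protein gene Tcf4 (-0.25 ± 0.102, adjusted p = 0.311). The median of the 14 was -0.02.

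Across all genes brighter than the median, those with the most similar profile were sought for the 5 members whose values spanned at least 0.5 on the log2 scale. The measure was the root mean square difference over the 8 arrays after each gene was centred on its control mean. For Msx1 they were Tfap2c, which encodes transcription factor AP-2 gamma (0.0964 log2 units), Rai14 (0.126) and Nfatc4 (0.129), and all 3 passed as lower in the mutants, with log2 fold changes of -0.63, -0.56 and -0.56. For Id4 they were Lmo7 (0.149), Crip1 (0.157) and Slc18b1 (0.183), for Smad6 Smyd3 (0.0226), Slc35b4 (0.0414) and Inpp5b (0.0417), and none of these 6 passed. For Msx2 they were the metallothionein gene Mt1 (0.115), Stard8 (0.125) and Ttpa (0.129), and for Bambi Gart (0.0469), Atad2 (0.0634) and Uhrf1 (0.0655), none of which passed. Similarity in 8 arrays is a description, and genes low in mutant replicate 3 come out as similar to one another. The change in mutants is part of the measure, so a change like that of the member follows from how these genes were picked.

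The tissue carried the markers that define it: by their mean over all 8 arrays, 11 of 12 mandibular arch genes were brighter than the median gene, whereas none of 5 Hox genes of the arches behind it was. Their levels also differed between the groups. Summed over a list on the linear scale and given as log2, the mandibular arch genes ran from 14.84 to 15.05 in controls and from 14.53 to 14.70 in mutants, where Pitx1, Lhx6 and Lhx8 fell and Dlx2 rose. The Hox genes ran from 8.51 to 8.66 and from 8.82 to 9.10, where Hoxb2 rose (0.83, adjusted p = 0.0104). Its mean was 7.01 in controls and 7.84 in mutants, so in the mutants it was above the median gene (7.63). Neither sum overlapped between the groups. A whole arch mixes cell types, and fewer cells of a type cannot be told apart from less RNA per cell. In the same sums, the 12 macrophage markers ran from 10.98 to 11.13 in controls and from 11.93 to 12.37 in mutants, with 10 of 12 risen. The 8 neuronal markers ran from 10.75 to 11.19 and from 10.24 to 10.71, with 1 fallen, Tubb3. The 10 epithelial markers ran from 12.94 to 13.33 and from 12.39 to 13.14, with none passed (1 had an unadjusted p under 0.05). The 10 endothelial markers, of the cells in which Smad6 and Id1 are known to be high, ran from 11.98 to 12.13 and from 11.85 to 12.24, with none passed (1 at an unadjusted p under 0.05). The 7 skeletal muscle precursor markers ran from 10.55 to 11.96 in controls, highest in control replicate 1, and from 10.58 to 11.52 in mutants, with none passed. The 4 Schwann cell and glial crest markers ran from 9.86 to 10.65 and from 9.89 to 10.38, with 1 fallen. The 8 erythroid markers ran from 15.95 to 16.07 and from 15.85 to 16.01, with none passed (4 at an unadjusted p under 0.05). Of all genes, 13.5% had an unadjusted p under 0.05. Mutant replicate 3 held the lowest of the 8 sums in the mandibular arch, neuronal, epithelial and endothelial lists. It held the lowest mutant sum in the macrophage list and the highest of the 8 sums in the Hox list. The part of these cell types, and of the arch and Hox lists, in the values of Id4, Msx1 and Smad6 was not tested.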

How the data were processed

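Per the submitters' processing notes the authors processed the Affymetrix arrays with RMA, which corrects background, equalizes array distributions and summarizes each probe set; the deposited values are log2 expression, with the version of RMA not stated there. Differences between dim probe sets come out too small under RMA. No detection calls were used. Of 45101 probe sets, 34958 had 1 gene symbol, 932 several and 9211 none in the platform annotation, and the latter kinds were not named. The probe set with the highest mean over 8 arrays stood for each of 18194 genes. All 9 members matched RefSeq by Entrez identifier. Mutants were compared with controls in limma 3.58.1 (R 4.3.3; lmFit, eBayes, no covariates), with Benjamini-Hochberg adjustment over all genes; adjusted p-values and intervals (95%) are from this fit, or over all 45101 probe sets where said. Intervals of within-array differences assume equal variance in the groups. The steps were tested on simulated arrays. The members and lists were chosen with earlier results of these data known. Named genes were the members, list genes past the threshold or else the 2 with the smallest p, and the 3 nearest genes; Bmp2, Bmp7, Bmpr1a, Acvr1, Nog, Sp7, Tbx2, Tbx3, Hey1, Gata3, Pitx1, Lhx6, Lhx8, Dlx2, Hoxb2 and Tubb3 were named after their values were seen. Of the listed genes, 11 were not analysed here. Alternatives covered the replicate block, probe set choice, filters, normalization, variance models, weights, thresholds and arrays left out.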

Additional observations from a re-analysis of the deposited data

Results flagged for a closer look

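In 2 of the 30 groups of 4 arrays looked at (15 probe sets in 2 groups), 1 array stood far from the other 3, and chance flags about 1 in 20 such groups. Both concern Id4 in mutant replicate 3. At probe set 1423259_at that array read 8.001, where the next lowest mutant read 8.92. At probe set 1450928_at it read 7.32, where the next read 7.98. The gap took 0.844 and 0.837 of the range of the group.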

How the results depend on the processing

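Of the 9 genes, 1 passed under a trended, robust variance model (Msx1), with array weights (Msx1), without control 4 and mutant 3 together (Id4) and at an adjusted p under 0.10 (Msx1); leaving out 1 array at a time gave 0 to 1. All genes past the threshold numbered 250 with all probe sets tested, 620 with quantile normalization, 1356 with array weights, 1126 without control 4 and mutant 3 together and 664 at an adjusted p under 0.10, and 104 to 618 without 1 array, against 390. BMP pathway genes numbered 12 with array weights, 11 without control 4 and mutant 3 together and 10 at an adjusted p under 0.10, and 0 without control 3 to 10 without control 4 among the settings that left out 1 array, against 6. Id1 turned to 0.037 with array weights and 0.038 without control 4 and mutant 3 together, and ran from -0.076 to 0.058 without 1 array, and Bambi from -0.029 to 0.12. Id2 minus Id1 ran from -0.16 to 6.2e-04 without 1 array, and Id3 minus Id2 from -0.075 to 0.060, or 0.086 over the mean of the probe sets. The causes were not tested. With the replicate number as a block, 0 of the 9, 293 of all genes and 4 BMP pathway genes passed. Acvr2b, Sostdc1 and Nbl1 lost their calls there, and a pathway gene outside the 6, lower in mutants, gained one. Same-numbered arrays deviated together only for replicate 4 (r = 0.41 over genes, against 0.03, 0.00 and -0.12 for replicates 1 to 3), so the numbers were not taken to pair the arrays. The 4 arrays a group and the low signal of Smad9 limit the precision. The settings for within-array differences were chosen after seeing the data.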
